A study of Homo sapiens with 12 samples.

Results

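The genes described here are ZFP36, ZFP36L1, ZFP36L2, ZC3HAV1, ZC3HAV1L and ZC3H4, 6 genes whose symbols place them with the CCCH zinc finger proteins. AGO2-bound RNA had been mapped by eCLIP in HCT116, an established human colorectal carcinoma cell line. In eCLIP, ultraviolet light links protein to RNA, the protein is precipitated with its RNA fragments, and the places where sequenced fragments pile up are reported as regions. The study asked which RNA is bound by FH-AGO2 WT, a tagged wild-type AGO2, and which by FH-AGO2 5xA, a tagged mutant whose name stands for alanine in place of a set of phosphorylated residues. Both were precipitated with an anti-FLAG antibody, and AGO2 knockout cells served as the control. The labels do not state how the tagged forms were expressed, whether each line is a single clone, or how the knockout and input samples entered the region calls. Each genotype had 2 IP samples, and the deposited list of each genotype merges them.

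Members were chosen as all regions that overlap the RefSeq span of 1 of the 6 genes on the gene's strand. This gave 13 of the 1190 regions of the WT list and 25 of the 2921 regions of the 5xA list, 38 of 4111 in all. The 6 genes were selected on their measured region counts and region widths in these lists, and the rule itself uses the number, width, position and sharing of the regions. The values below are therefore descriptions, and no test was made of them. With 1 merged list per genotype there is also no replicate error, and the read depth behind each region is unknown. A region list does not give the level of an mRNA, so more AGO2 per transcript and more transcripts cannot be told apart.

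Proteins of this class fold around zinc through cysteine and histidine residues, and many of them grip RNA with these fingers. ZFP36 (tristetraprolin) and its paralogs ZFP36L1 and ZFP36L2 bind AU-rich elements in the 3' UTRs of short-lived mRNAs and recruit the CCR4-NOT deadenylase, the same enzyme complex that AGO2 reaches through GW182 proteins. ZC3HAV1 (ZAP) binds CpG-rich viral RNA and directs its decay, ZC3HAV1L is a shorter relative of it encoded next to it, and ZC3H4 restricts the transcription of noncoding RNA.

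Only 1 of the 38 regions touched another annotated gene. It was the single region of ZC3HAV1, and it met the miRNA gene MIR10399 by 1 base. The mature miRNAs of MIR10399 are shown, with the seed (bases 2 to 8) in capitals, because the shared base belongs to the 3' end of the 3p miRNA and not to the 5p miRNA. The sequences are from RefSeq (GRCh38.p14), read 5′ to 3′.
hsa-miR-10399-3p: cUCUCGGAcaagcuguagguc
hsa-miR-10399-5p: aAUUACAGauugucucagaga
The 3p miRNA lies at positions 139044100 to 139044120 of chromosome 7 on the minus strand, and the region at 139044038 to 139044100. The seed of the 3p miRNA lies outside the region. Between the region's edge and the nearer end of the 5p miRNA, its 3' end, lay 36 bases. No file used here holds the sequence under the 38 regions, so miRNA seed matches and AU-rich elements within them were not analysed.

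The genes differed widely in how much of them was covered. In the WT list, ZFP36L1 had 1765 bases covered, ZFP36 1508, ZC3HAV1L 1360 and ZFP36L2 127, while ZC3HAV1 and ZC3H4 had none. In the 5xA list the order was ZFP36L1 with 2533 bases, ZC3HAV1L with 2036, ZFP36 with 1521, ZC3H4 with 401, ZFP36L2 with 314 and ZC3HAV1 with 63. ZFP36 and ZC3HAV1L thus changed places between the lists. Each gene had more bases covered in the 5xA list, from 13 more in ZFP36 to 768 more in ZFP36L1. Without a replicate error, it cannot be said which neighbours in these orders differ.

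**Figure D1:**
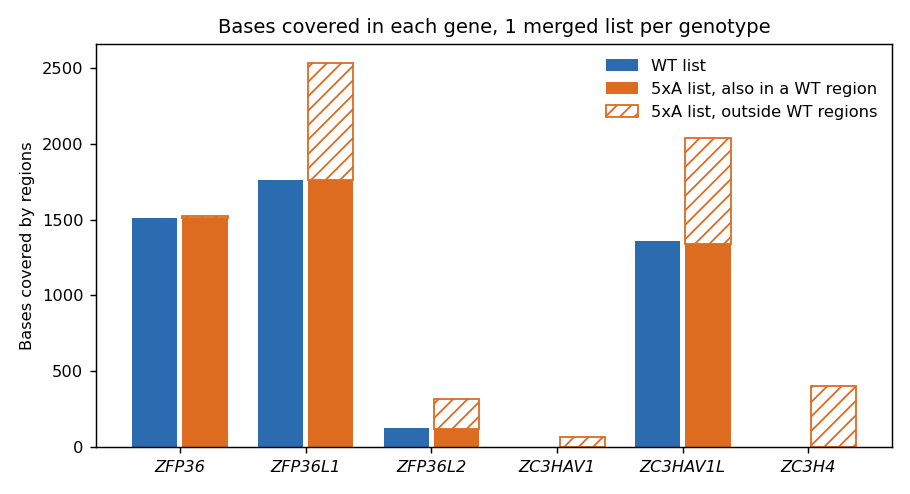
Bases covered by regions (vertical axis) in each of the 6 genes (horizontal axis), in the WT list (blue) and the 5xA list (orange, with the hatched part outside WT regions). ZFP36 is covered almost equally in both lists (1508 and 1521 bases), and ZC3HAV1 and ZC3H4 have bars in the 5xA list alone.

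Of the 6 genes, 4 held a region in the WT list and 6 in the 5xA list. Among 20033 protein-coding genes, 3.35% held a region in the WT list and 7.45% in the 5xA list. In the 5xA list only, 2 of the 6 genes held regions, against 4.45% of all protein-coding genes, and 0 of the 6 in the WT list only, against 0.359%. At least 4 regions were held by 2 of the 6 genes in the WT list (0.205% of all genes) and by 3 in the 5xA list (0.734%). A region of at least 1000 bases was held by ZFP36 and ZFP36L1 in each list, against 0.0200% of all genes with WT and 0.0349% with 5xA. These counts are what brought the genes together, and nothing is read from their excess over the background.

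ZFP36 held 1 region in each list, and they were nearly the same interval. The gene spans positions 39406847 to 39409407 of chromosome 19 on the plus strand (hg38). The WT region ran from 39407755 to 39409262 (1508 bases) and the 5xA region from 39407743 to 39409263 (1521 bases). The 5xA region thus began 12 bases earlier and ended 1 base later. The WT region was the widest of all 1190 in its list, and the 5xA region ranked 5th of 2921. They covered 58.9% and 59.4% of the gene span, which put ZFP36 in ranks 1 and 3 among protein-coding genes by the share of the span covered. Its rank by covered bases was 10 in the WT list and 25 in the 5xA list. Both regions stopped about 145 bases short of the downstream gene end (145 with WT, 144 with 5xA) and left the first 908 and 896 bases of the gene without a region. How much of a region this wide lies in the 3' UTR and how much in the coding sequence was not analysed here, since the gene table gives no exons.

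ZFP36L1 was the most broadly covered of the 6 genes, with rank 5 by covered bases among all protein-coding genes in both lists. It spans 68787655 to 68796243 of chromosome 14 on the minus strand, so its downstream end is the lower coordinate. Counted from that end, the 4 WT regions were 144, 401, 153 and 1067 bases wide and began 321, 676, 1112 and 1331 bases from it. The 5 5xA regions were 119, 264, 679, 1239 and 232 bases wide and began 117, 320, 589, 1307 and 2548 bases from it. All 1765 WT bases lay within 5xA regions. The 5xA region of 679 bases took in both the 401-base and the 153-base WT region and the 35 bases between them. The 1067-base WT region was the 3rd widest of its list, and the 1239-base 5xA region that contained it was the 8th widest.

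In ZFP36L1, the regions found with 5xA only sat at the 2 outer edges of the WT cover. The 119-base region lay nearest the downstream end, 84 bases from the next 5xA region. The 232-base region lay farthest from it and was separated from the 1239-base region by 2 bases. With regions within 50 bases joined, the gene held 3 WT clusters but 2 5xA clusters. One of the latter ran 2460 bases, from 68787975 to 68790434. RefSeq places starts of this gene at 68796243 and 68793416, and the nearest region edge lay 2982 bases from the closer one.

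ZFP36L2 differed from both paralogs in holding no wide region. It spans 43222402 to 43226606 of chromosome 2. Its single WT region, from 43222856 to 43222982, was 127 bases wide, and the overlapping 5xA region, from 43222840 to 43222971, was 132 bases wide. They shared 116 bases, and the 5xA region was shifted toward the downstream end, reaching 16 bases further on that side and stopping 11 bases short on the other. A further pair of regions was found with 5xA only, 108 bases wide from 43224778 and 74 bases wide from 43224961. A stretch of 1806 bases without a 5xA region separated them from the first. They lay 2376 and 2559 bases from the downstream end and 1721 and 1572 bases from the upstream end, near the middle of the gene span. Regions covered 3.02% of the span in the WT list and 7.47% in the 5xA list, beside 20.5% and 29.5% in ZFP36L1.

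**Figure D2:**
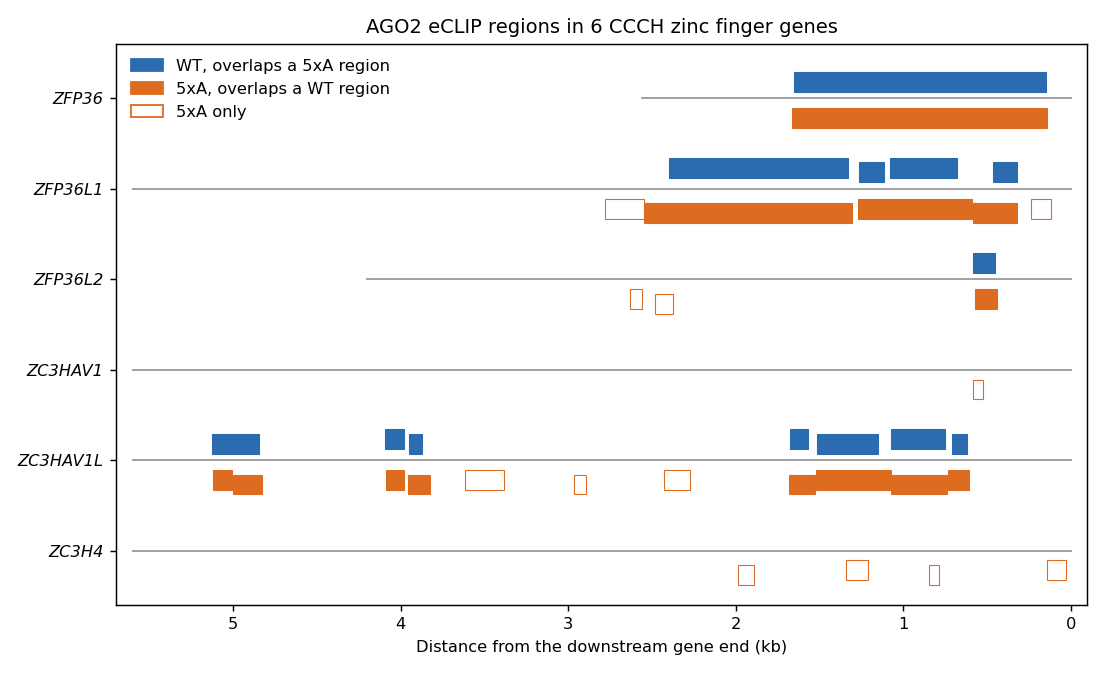
Regions of the WT list (blue, above each line) and the 5xA list (orange, below it) in the 6 genes, by distance from the downstream gene end in kb. Open boxes are 5xA regions that overlap no WT region, neighbouring boxes are staggered in height so that short gaps can be seen, and each grey line is the gene span, cut off on the left where the gene is longer than the axis. Regions of ZFP36 and ZFP36L1 form long blocks, and those of ZC3H4 are 4 separate narrow boxes. In ZC3HAV1L, 3 separate open boxes lie in a stretch where the WT list has none.

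ZC3HAV1L held 47.4% of the 38 regions, 7 in the WT list and 11 in the 5xA list. It ranked 6th among protein-coding genes by the number of WT regions and 5th by the number of 5xA regions. The gene spans 139021498 to 139036042 of chromosome 7 on the minus strand. From the downstream end, the WT regions were 92, 324, 368, 108, 78, 112 and 278 bases wide. They formed a group of 4 that began 617 to 1571 bases from the end, a pair at 3874 and 3984 bases and a last one at 4848 bases. A stretch of 2195 bases without a WT region separated the group of 4 from the pair.

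The 5xA regions of ZC3HAV1L repeated these places and added others between them. The first 4, which were 126, 332, 443 and 152 bases wide, lay 7, 3 and 10 bases apart and so formed an almost unbroken stretch of 1073 bases, from 139022105 to 139023177. The 4 WT regions at that place were 39, 77 and 54 bases apart. The 3 regions found with 5xA only (155, 68 and 237 bases wide) all lay in the stretch that separates the WT groups, 2275, 2896 and 3382 bases from the downstream end. Each was at least 206 bases from its nearest 5xA neighbour. At the upstream end of the cover the lists differed in the other direction, since the 278-base WT region was met by a pair of 5xA regions, 174 and 113 bases wide and 9 bases apart. The whole covered stretch was of nearly the same length in both lists, 4509 bases with WT and 4516 with 5xA. Regions filled 30.2% of it in the WT list and 45.1% in the 5xA list.

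ZC3HAV1, whose span lies upstream of that of ZC3HAV1L on the same strand with 7472 bases between the spans, held 1 narrow region. No WT region lay in its span of 66.2 kb, and the 5xA region was 63 bases wide, 523 bases from the downstream gene end. At this width it ranked 2789th of 2921 in the list. It is the region that meets MIR10399 by 1 base, so it may be counted to the host gene or the miRNA gene, and whether it stems from the mRNA was not tested. Of this pair of neighbouring genes, the full-length antiviral factor thus had 63 bases covered and its shorter relative 2036 in the 5xA list.

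ZC3H4 was the other gene without a WT region, and it held 4 regions with 5xA. It spans 47064187 to 47113776 of chromosome 19 on the minus strand. The regions began at 47064216, 47064972, 47065396 and 47066078 and were 110, 63, 133 and 95 bases wide. They lay 29, 785, 1209 and 1891 bases from the downstream end, spaced 361 to 646 bases apart. All 4 therefore lay in the last 1986 bases of a gene of 49.6 kb. None was wide: their median was 102.5 bases, beside 104 bases over the whole 5xA list. Among protein-coding genes, 9 held at least 4 regions in the 5xA list and none in the WT list, counting both CSNK1E and the readthrough gene that contains it.

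All 13 WT regions of these genes overlapped a 5xA region (100%, exact 95% Clopper-Pearson interval 75.3 to 100), beside 81.3% of all WT regions. Of the 25 5xA regions, 13 overlapped a WT region (52.0%, 31.3 to 72.2), beside 32.3% of all 5xA regions. These intervals cover counting error alone and treat regions as independent, although 18 of the 38 lie in ZC3HAV1L. Without that gene 35.7% of the 5xA regions were shared, and with regions within 50 bases joined 35.3% were. By bases, 4728 of the 4760 WT bases (99.3%) lay in 5xA regions, beside 79.9% over the whole WT list. The 32 WT bases outside 5xA regions lay in ZC3HAV1L (21 bases) and ZFP36L2 (11 bases). The 5xA list had 1.92 times as many regions and 1.44 times as many covered bases as the WT list in these genes, against 2.45 and 2.35 times over all regions. By gene, the ratio of covered bases was 1.01 in ZFP36, 1.44 in ZFP36L1, 1.5 in ZC3HAV1L and 2.47 in ZFP36L2.

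**Figure D3:**
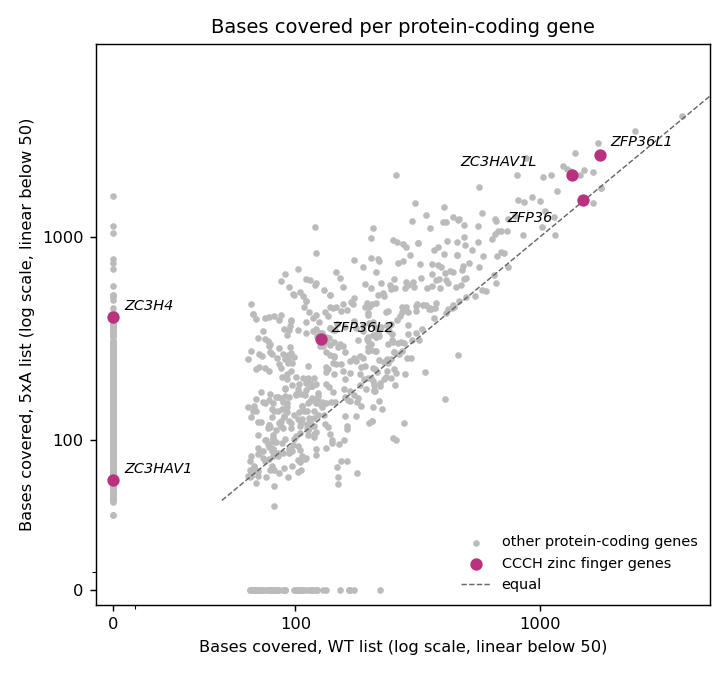
Bases covered in the WT list (horizontal) and the 5xA list (vertical) for each protein-coding gene with a region, on log axes that are linear below 50, with the 6 genes in purple and a dashed line where both are equal. ZFP36 lies close to the line, ZFP36L1, ZC3HAV1L and ZFP36L2 lie above it, and ZC3HAV1 and ZC3H4 stand at 0 on the WT axis with 63 and 401 bases.

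Where a WT and a 5xA region overlapped one another alone, the edges could be compared. There were 10 such pairs in ZFP36, ZFP36L1, ZFP36L2 and ZC3HAV1L. In 9 of them the 5xA region was wider and in 1 it was narrower, with a median difference of 39 bases, and the 5xA region contained the whole WT region in 8. Of the 20 edges, 10 agreed to within 10 bases. The best matched were the 324-base WT and 332-base 5xA regions of ZC3HAV1L, which shared their upstream edge exactly. The exception in width was the next-to-last WT region of ZC3HAV1L, of 112 bases, which met a 5xA region of 105 bases. The same comparison over all shared regions was not made here, so wider 5xA regions are not read as particular to these genes.

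Widths in these genes reached into the upper tail of both lists. The median was 153 bases for the 13 WT regions and 132 bases for the 25 5xA regions, beside 114 and 104 over all regions. The WT median was 323 bases with regions within 50 bases joined and 277 bases without ZC3HAV1L, where the 5xA median was 132 and 125.5 bases. At least 250 bases were reached by 6 of the 13 WT regions (46.2%, beside 8.74% of all) and 6 of the 25 5xA regions (24.0%, beside 8.39%). These were all in ZFP36, ZFP36L1 and ZC3HAV1L. Regions found with 5xA only were 63 to 237 bases wide, with a median of 109 bases, and shared 5xA regions had a median of 174 bases. Over the whole 5xA list these medians were 93 and 145 bases. Width by itself makes an overlap of 1 base easier to reach.

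**Figure D4:**
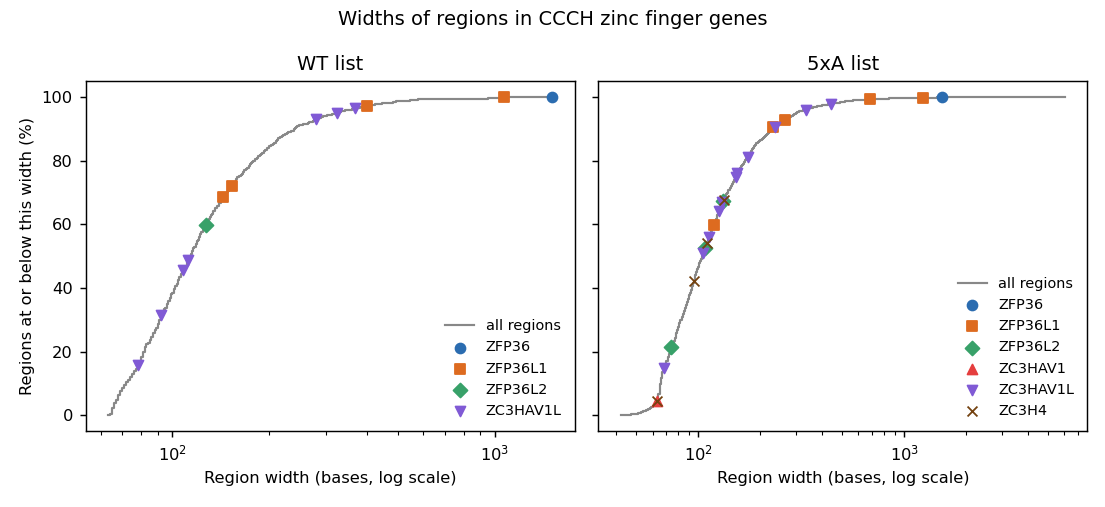
Share of regions at or below each width (vertical, %) against region width in bases (horizontal, log scale) for all regions (grey line) and the regions of the 6 genes (symbols placed on the line), in the WT list (left) and the 5xA list (right). ZFP36 (1508 and 1521 bases) stands at the top of the curve in both lists, while ZC3HAV1 and the narrowest ZC3H4 region share a point at 63 bases.

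All regions lay nearer the downstream gene end, where 3' UTRs are, than the upstream end, except the ZFP36L2 pair found with 5xA only. Within 5 kb of the downstream end lay 13 of 13 WT and 24 of 25 5xA regions. In protein-coding genes with a known strand, 85.3% and 82.2% of regions did so. The 5xA region outside this window, in ZC3HAV1L, began 5010 bases from the end, and the WT region that overlaps it began at 4848 bases. Within 1 kb lay 46.2% of the WT and 40.0% of the 5xA regions, beside 43.3% and 41.3% in protein-coding genes with a known strand. ZFP36 and ZFP36L2 are shorter than 5 kb, so the wider window holds their whole span. No region lay on the opposite strand in any of the 6 spans. Just outside the spans, the nearest regions on the same strand belonged to the neighbours ZC3HAV1 and ZC3HAV1L. The ZC3HAV1 region lay 8.0 kb from the span of ZC3HAV1L, and the nearest ZC3HAV1L regions lay 16.9 kb from that of ZC3HAV1. In the WT list a region in SAMD4B lay 21.8 kb from ZFP36 and one in BBC3 107 kb from ZC3H4.

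Of 52 further CCCH genes in the gene table, 3 held regions with both forms of AGO2, 1 in the 5xA list alone and 0 in the WT list alone. These were 5.77% and 1.92% of the list, against 3.0% and 4.45% of all protein-coding genes. MBNL1, a splicing regulator, held 2 regions in each list (220 bases with WT and 246 with 5xA). ZC3H12C, a relative of the mRNA-cleaving protein regnase-1, held 1 and 2 (134 and 322 bases), and U2AF1, which recognises the 3' splice site, held 1 and 1 (80 and 74 bases). CNOT4 held 1 region of 63 bases with 5xA, 26288 bases from its downstream end.

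Partners and regulators of the ZFP36 proteins in AU-rich element decay were also read from the lists. Of 48 genes, 4 held regions with both forms of AGO2, 4 in the 5xA list alone and 0 in the WT list alone (8.33% and 8.33%, against 3.0% and 4.45% of all genes). GIGYF1, which joins 4EHP to its partners in translational repression, held 5 WT and 7 5xA regions. TOB2, an adaptor of the CCR4-NOT deadenylase, held 1 and 3, and its WT region overlapped no 5xA region. KHSRP, which also binds AU-rich elements, held 1 and 2. The 14-3-3 genes YWHAG and YWHAZ, whose products bind phosphorylated ZFP36, held 2 and 1, and 0 and 3. PABPC1, the poly(A)-binding protein gene, held 0 and 2. No CNOT subunit gene of this list held a region, against 3.35% of all genes with WT and 7.45% with 5xA. Nothing is read from this absence, and CNOT4, counted above with the CCCH genes, held 1 region with 5xA.

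Of 29 mRNAs reported as targets of ZFP36 proteins, 8 held regions with both forms of AGO2, 1 in the 5xA list alone and 0 in the WT list alone (27.6% and 3.45%, against 3.0% and 4.45% of all genes). Among the genes with any region, the median cover was 146 bases with WT and 415 bases with 5xA. The same medians were 107 and 160 bases for the further CCCH genes and 55.5 and 370 for the partners and regulators. For the colorectal epithelial markers they were 358 and 450 bases. No such median was taken over all genes with a region, so these values are not read as high or low. The cyclin gene CCND1 held 5 WT and 6 5xA regions, CDKN1A, which encodes the CDK inhibitor p21, held 6 and 4, IER3 held 1 and 4, MYC and the kinase gene PIM1 held 1 and 3 each, and the receptor gene NOTCH1 held 1 and 2. Of the regions at IER3, 3 also lay in another gene. The background counts genes that these cells may not express, and the part of mRNA level in these shares was not tested.

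For the other members the lists were shorter. Of 12 partners and targets of ZC3HAV1, among them TRIM25 and KHNYN, 0 held a region in either list, against 3.35% of all genes with WT and 7.45% with 5xA. Of 12 genes listed with ZC3H4 for transcription restriction, 0 held a WT region and 3 held regions with 5xA only (25%, against 4.45% of all genes). These were SETD1B with 3 regions, WDR82 with 2, of which 1 also lay in another gene, and SETD1A with 1. Among cell type markers, 1 of 18 colorectal epithelial genes held a WT region (5.56%) and 2 a 5xA region (11.1%), against 3.35% and 7.45% of all genes. Of 12 fibroblast genes 1 held a WT region (8.33%) and 3 a 5xA region (25%), and of 13 blood cell genes 0 held a region. CLDN4, an epithelial tight junction gene, held 2 WT regions and 1 5xA region (716 and 835 bases), and VIL1 held 0 and 1, at a place that also lies in another gene. The collagen gene COL1A1, from the fibroblast list, held 2 and 4 (407 and 1403 bases), and COL6A1 and COL6A2 held 0 and 1 each. A gene without a region may still be expressed, so these counts do not check the identity of the cells.

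Genes with a like pattern were sought over 4 values, the number of regions and the covered bases in each of the 2 lists, all on a log2 scale. The likeness was the Euclidean distance, with 0 for an identical pattern. ZFP36L1 was nearest to TRIB1 (5 and 5 regions, distance 0.332) and CCND1 (5 and 6, 0.441). ZC3HAV1L was nearest to the H3K27 demethylase gene KDM6B (7 and 10 regions, 0.161) and to NACC1 (6 and 10, 0.349). ZFP36 had no close neighbour, and the nearest were PLEC at 1.261 and CLDN4 at 1.389. For ZFP36L2 the nearest were KLF16 (0.049) and LMNA (0.057), and for ZC3H4 they were AEN (0.029) and CUX1 (0.038). Within a distance of 0.5 lay 49 genes for ZFP36L2, 29 for ZC3H4, 4 for ZC3HAV1L, 2 for ZFP36L1 and 0 for ZFP36. For ZC3HAV1, BCL3 and CNOT4 came first by symbol among genes with the same pattern (a distance of 0), and 598 genes lay within a distance of 0.5, since many genes held 1 narrow region with 5xA only. The distance rests on 2 lists and describes amounts, not positions.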

How the data were processed

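The 2 deposited region lists were used, 1 for the WT IP samples and 1 for the 5xA IP samples. Per the labels, each file belongs to both IP replicates of its genotype. The authors' files have 6 columns, and the deposited score is 0 in every row, so regions could not be ranked by it. The build hg38 and the tools cutadapt 1.9.1 and TopHat2 are named in the submitters' processing notes. The sources used here name no peak caller, threshold or merging rule. Inputs and knockout IPs (8 samples) were not analysed here.

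Gene spans came from RefSeq (GRCh38.p14, the coordinates of hg38) and strands from a RefSeq table of gene starts, which covered 79.1% of 20033 protein-coding genes. Genes without a strand took regions of either strand. For ZFP36L2, absent from that table, the minus strand was taken from general knowledge, and all its regions lie on it. An overlap of 1 base or more on 1 strand made a WT and a 5xA region shared. Distances run from the nearer region edge to the downstream gene end. Overlap code (Python 3.11.15, pandas 2.3.3) was tested on simulated data.

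The members and gene lists were chosen with earlier results of these data known. Of the list of ZFP36 targets, 1 gene is not reported here. Named were all members, up to 6 genes per list with most regions, and the 2 genes nearest to each member by pattern. Alternatives changed the joining, width, sharing, strand and distance rules. A 1 kb window and the values without ZC3HAV1L were added after seeing the data.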

Additional observations from a re-analysis of the deposited data

How the results depend on the processing

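Of 124 values recomputed under an alternative, 108 kept to within 1.5 times of the reported count, cover or width, or within the exact interval of the reported share. Some could hardly move, since only 1 of the 38 regions lies in another gene and none lies on the opposite strand. The intervals are also wide, and a WT share of 100% counted as kept down to 75.3%. With regions within 50 bases joined, the median WT width was 323 bases, ZFP36L1 held 2 and ZC3HAV1L 6 5xA regions. Without ZC3HAV1L the median WT width was 277 bases, and 35.7% of 5xA regions were shared. With regions under 100 bases left out, ZC3HAV1 held 0 and ZC3H4 2 5xA regions. Under this cutoff, 5 of 29 reported ZFP36 targets held regions with both forms. With 5xA only, 0 of 52 further CCCH genes and 0 of 18 colorectal markers were found. Over all protein-coding genes, those with a WT region fell from 672 to 449 and those with a 5xA region from 1492 to 884. The drops in the lists are therefore not read as particular to them. With regions in more than 1 gene left out, ZC3HAV1 held 0 regions, 0 colorectal markers and 2 reported ZFP36 targets were found with 5xA only. Within 2 kb of the downstream end lay 60% of 5xA regions, and within 1 kb 46.2% of WT and 40.0% of 5xA regions. A reciprocal overlap of 50% left 92.3% of WT regions shared. No paired analysis was possible because each list merges its replicates, and for the same reason no replicate could be left out. Depth is unknown, so a gene without a WT region may lie below the threshold of that list.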
